A study of Mus musculus with 24 samples.

Results

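The transcripts described are those of interneurons of the ventral hippocampus that were counted in both the C57BL/6J strain (B6) and the DBA/2J strain (D2). Counts of the cell types whose names begin with Inh- (Inh-MGE, Inh-CGE and Inh-Lamp5) were summed in each single-nucleus RNA sequencing (snRNA-seq) library, and a symbol was kept if it had at least 1 count in each strain. Of 33902 symbols, 21635 met this rule, while 7189 had interneuron counts in D2 only, 1421 in B6 only and 3657 in neither strain. Of the D2-only symbols with a single annotation entry, 2478 of 6715 were pseudogenes, against 0 of 1355 of the B6-only symbols. Whether the strains were counted with the same gene list was not tested, nor was its part in the differences below. Of the 21635, 15495 had enough counts to be tested for a difference between strains and 6140 did not. The comparison asks which transcripts of inhibitory neurons are set at different levels in D2 and B6 mice.

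Both strains are inbred and carry no engineered allele or treatment. The animals were adult males of 10 to 16 weeks, about 2 animals were pooled in a replicate, and there were 2 libraries per strain for snRNA-seq and 2 for single-nucleus assay of transposase-accessible chromatin (snATAC-seq). Nuclei for snRNA-seq were sorted so that most were positive for NeuN, a nuclear protein of neurons. Libraries are numbered 2 and 3 in the count tables, and values are given below in the order B6 library 2, B6 library 3, D2 library 2 and D2 library 3.

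Interneurons release GABA onto neighbouring cells and control when the excitatory neurons of the hippocampus fire. Those born in the medial ganglionic eminence (MGE) include the parvalbumin and somatostatin cells, those born in the caudal ganglionic eminence (CGE) include the Vip and Cck cells, and Lamp5 cells include neurogliaform cells. B6 and D2 mice differ at many positions in their genomes, and they differ in behaviours that depend on inhibition, among them alcohol withdrawal and seizure susceptibility.

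The promoters of 4 of the genes described below are shown as examples of a transcript that differed between strains with and without a difference in the chromatin at its start. They are RefSeq sequences of GRCm38.p6, from 250 bases before to 50 bases after the RefSeq start of the gene. They are read on the strand of the gene from 5′ to 3′, with every CpG dinucleotide in capitals. At Stab2, Alad and Rnf121 this start differs from that of the GENCODE annotation, which was used for the gene coordinates and promoter peaks below. The Rnf121 window lies inside its GENCODE gene, which runs from 102019137 to 102065469. At Fggy the transcript and its promoter peak were both lower in D2, and at Stab2 and Alad both were higher. At Rnf121 the transcript was higher in D2 and the promoter peak was not called.
Fggy, chr4:95557257-95557556, plus strand: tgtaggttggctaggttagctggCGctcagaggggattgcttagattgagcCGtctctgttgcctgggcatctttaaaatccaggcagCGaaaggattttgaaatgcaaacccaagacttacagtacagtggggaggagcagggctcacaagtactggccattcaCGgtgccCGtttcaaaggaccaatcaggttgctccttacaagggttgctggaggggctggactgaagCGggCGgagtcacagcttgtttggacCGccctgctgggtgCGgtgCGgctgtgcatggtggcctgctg
Stab2, chr10:87007893-87008192, minus strand: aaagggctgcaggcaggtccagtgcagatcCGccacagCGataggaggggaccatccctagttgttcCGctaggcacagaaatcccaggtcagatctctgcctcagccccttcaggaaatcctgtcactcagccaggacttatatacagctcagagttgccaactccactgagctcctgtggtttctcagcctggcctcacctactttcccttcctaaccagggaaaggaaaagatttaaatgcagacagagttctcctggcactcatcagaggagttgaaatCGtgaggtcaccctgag
Alad, chr4:62519860-62520159, minus strand: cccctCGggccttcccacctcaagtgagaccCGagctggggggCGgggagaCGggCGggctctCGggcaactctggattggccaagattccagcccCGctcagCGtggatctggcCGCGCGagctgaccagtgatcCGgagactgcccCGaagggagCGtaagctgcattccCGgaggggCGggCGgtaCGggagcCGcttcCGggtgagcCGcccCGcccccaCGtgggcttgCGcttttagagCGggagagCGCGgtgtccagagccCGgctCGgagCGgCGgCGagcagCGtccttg
Rnf121, chr7:102065116-102065415, minus strand: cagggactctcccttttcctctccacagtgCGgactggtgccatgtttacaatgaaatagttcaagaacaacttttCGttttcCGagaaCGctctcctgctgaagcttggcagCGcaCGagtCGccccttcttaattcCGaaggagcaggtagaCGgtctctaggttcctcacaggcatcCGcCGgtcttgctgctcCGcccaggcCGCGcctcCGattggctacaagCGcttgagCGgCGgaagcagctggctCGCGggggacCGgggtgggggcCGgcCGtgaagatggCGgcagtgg
Fggy held 10 CpG dinucleotides, Stab2 4, Alad 33 and Rnf121 24, against a median of 7 over 32851 promoters of the same length, of which 94.6% held at least 1. The dinucleotide reads the same on both strands, and the counts describe these windows of the reference strain only.

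Interneuron counts totalled 6377258, 7029481, 7168678 and 5406076 in the 4 libraries, from 852, 756, 888 and 607 interneuron nuclei by the authors' numbers. The defining transcripts of interneurons were present in every library, and their levels are given as counts per 1000000 interneuron counts, with library totals scaled by TMM (CPM). The summed level of 6 interneuron markers, among them Gad1, Gad2 and Slc32a1, was 8177, 9174, 7344 and 6837 CPM, of which Erbb4, which was called lower in D2, supplied 6830, 7836, 6012 and 5396 CPM. Excitatory neuron markers summed to 40.1 to 56.4 CPM over 7 genes, with 3 of them at or under 5 CPM in every library. Over 6 oligodendrocyte markers the sum was 119.6 and 121 CPM in B6 and 80.3 and 92.1 CPM in D2, with 3 of the 6 called lower in D2, Mobp and Mbp among them, while Mog, Mag and Opalin were not called and had log2 differences of 0.42, 0.34 and 0.01, and over 6 microglial markers it was 237, 252, 202 and 172 CPM. Lamp5 nuclei supplied 15.5% and 16.4% of interneuron counts in B6 and 11.7% and 13.8% in D2. CGE nuclei supplied 29.1% and 26.6% in B6 and 31.4% and 33.4% in D2. MGE nuclei supplied 55.4% and 57.0% in B6 and 56.8% and 52.7% in D2. The part of these differences in the results below was not tested. Lamp5 nuclei were 16.7% and 18.0% of interneuron nuclei in B6 and 14.1% and 14.5% in D2. Their counts per nucleus were 6953.3 and 8476.8 in B6 and 6727.4 and 8498.5 in D2. For a single transcript, summed counts do not tell fewer cells of a subtype from less RNA per cell.

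Of the 15495 transcripts tested, 2429 (15.7%) differed between strains at an adjusted p under 0.05 by edgeR's quasi-likelihood test with Benjamini-Hochberg adjustment, of which 1072 (6.92%) were higher in D2 and 1357 (8.76%) were lower. The median size of the difference was 0.74 on the log2 scale among those higher and 0.72 among those lower, and 363 and 486 of them, respectively, differed by at least 1. In 2428 of the 2429 both D2 libraries lay on one side of both B6 libraries, which was so for 59% of all transcripts tested. DESeq2 called 1132 transcripts, and 1272 were called by edgeR without B6 library 3. With 2 libraries against 2 an exact permutation test of a single transcript cannot go below p = 0.333, so the p-values come from models fitted across all transcripts. They measure the spread between pools of animals.

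A transcript that shares its strand and position with another annotated gene can lose or gain reads to its neighbour. Such an overlap was found for 44.3% of the transcripts lower in D2 (584 of 1319 with a single annotation entry), for 16.7% of those higher (175 of 1045) and for 24.0% of those tested. Among the 11605 transcripts with no overlap, 703 were higher and 785 lower in D2, and the share of calls that were higher was 47.2%, against 44.1% over all transcripts. The 20 transcripts named next have no annotated neighbour on their strand.

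The transcripts named next had the widest differences among those called with a mean of at least 10 CPM and no overlap on their strand, and some overlapping transcripts differed more, such as mt-Co3, with a log2 difference of -7.46. Among the 10 lower in D2, Fggy, a kinase of the carbohydrate kinase family on chromosome 4 (95557507 to 95926939), was measured at 41.9, 42.0, 2.43 and 1.67 CPM. Both B6 libraries were high and nearly equal, both D2 libraries were low, and the log2 difference was -4.31 (SE 0.21, edgeR adjusted p = 5.21e-09). Tek, the angiopoietin receptor best known from blood vessels, was measured at 28.5, 36.7, 0.857 and 0.929 CPM and was lower in D2 by a log2 difference of -5.17 (SE 0.29, edgeR adjusted p = 1.95e-08). The vascular and leptomeningeal marker list, to which Tek does not belong, summed to 14.3 and 11.5 CPM in B6 and 19.7 and 17.6 CPM in D2. Of its 6 genes, 5 were at or under 5 CPM in every library. The part of vascular RNA in the difference of Tek was not tested.

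The ribosomal protein gene Rpl29 was measured at 23.7, 20.1, 2.57 and 4.09 CPM, a log2 difference of -2.74 (SE 0.25, edgeR adjusted p = 3.15e-06). Genes of ribosomal proteins have near-identical processed copies, so counts of Rpl29 are uncertain. The mitochondrial genes mt-Co1 and mt-Co2, which encode subunits of cytochrome c oxidase, were also among the 10. The level of mt-Co2 was 352 and 536 CPM in B6, and only 3 and 4 counts were found in the D2 libraries. The level of mt-Co1 was 335, 526, 49.7 and 38.4 CPM. Copies of the mitochondrial genome also lie in the nuclear genome, and the counts of these transcripts are uncertain for that reason.

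The other 5 lower transcripts were long noncoding RNAs with no role that is known with certainty. Gm32250 on chromosome 1 was the most abundant of them, at 209.6, 192, 28.6 and 27.7 CPM. It was lower in D2 by a log2 difference of -2.83 (SE 0.11, edgeR adjusted p = 3.37e-10). The remainder, 1700026F02Rik, Gm15564, Gm28807 and B230217J21Rik, were lower by log2 differences between -5.37 and -2.41.

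Among the 10 transcripts most increased in D2, Rnf121 had the highest level. Rnf121, a membrane ubiquitin ligase of the endoplasmic reticulum and Golgi on chromosome 7 (102019137 to 102065469), was measured at 42.4, 42.6, 741 and 629 CPM. The D2 libraries were 16.1 times the B6 libraries, a log2 difference of 4.01 (SE 0.11, edgeR adjusted p = 3.45e-11). Stab2, a scavenger receptor for hyaluronan on chromosome 10 (86841198 to 87008025), was measured at 5.0, 5.55, 146 and 189.6 CPM, a log2 difference of 4.98 (SE 0.17, edgeR adjusted p = 1.68e-10). Gm16268 is annotated on the strand opposite to Stab2 and overlaps its end. It was at 1.29, 1.65, 24.9 and 28.6 CPM, and without a statement of how strand was used in counting the pair cannot be told apart.

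Mlycd, malonyl-CoA decarboxylase of fatty acid metabolism, was measured at 7.09, 6.44, 73.0 and 68.3 CPM, a log2 difference of 3.38 (SE 0.14, edgeR adjusted p = 1.24e-09). The zinc finger gene Zfp951 was measured at 6.29, 5.70, 36.9 and 43.8 CPM, a log2 difference of 2.74 (SE 0.18, edgeR adjusted p = 1.03e-07). In both genes the strains were separated by several times the distance between libraries of a strain. The noncoding Gm12160 had 1 count in the B6 libraries and 1142 in the D2 libraries, a ratio of 1187 per total count with a 95% exact interval of 213 to 46931 that covers counting error only. The others were the noncoding Gm20324, Rap1gapos and 4930568G15Rik and the protein-coding Gm3417, higher by log2 differences between 3.0 and 5.29. Gm20324, Rap1gapos and Gm16268 are annotated as antisense, and Gm3417 belongs to a family of near-identical genes, so that their counts are uncertain. Gm15564, of the transcripts lower in D2, is also annotated as antisense, and its counts are uncertain as well.

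**Figure D1:**
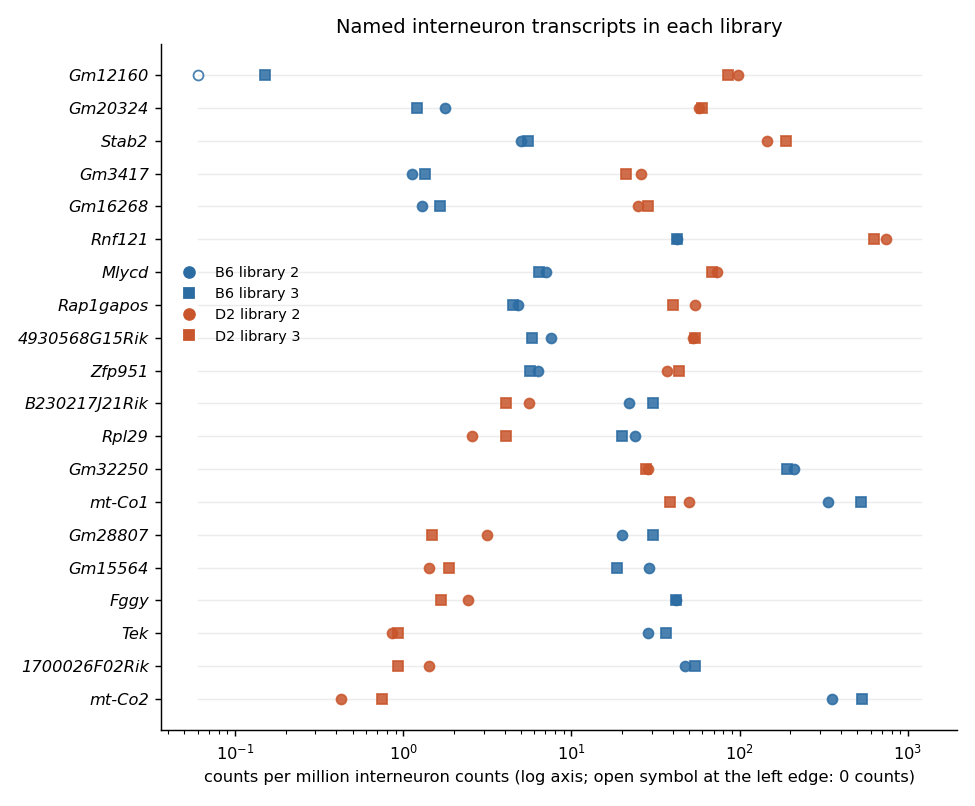
Level of the 20 named transcripts in each library, in CPM on a log axis, with B6 in blue and D2 in orange, and circles for library 2 and squares for library 3. In each row the pair of libraries of one strain sits apart from the pair of the other, which the rule for naming required. The open circle marks Gm12160, which had 0 counts in B6 library 2.

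Genes with roles in inhibition were examined in 18 lists. Of 399 genes on the lists, 353 were tested and 67 were called (19.0%, against 15.7% of all transcripts tested), 13 of them higher in D2 and 54 lower. For these genes the differences were smaller than for the named transcripts, and 38 of the 67 lost the call under at least 1 of 14 alternatives. Leaving out B6 library 3 ended 29 of these calls, D2 library 3 ended 16, D2 library 2 ended 12 and B6 library 2 ended 6, and DESeq2 did not make 16. For a gene described below that lost its call in this way, the adjusted p under 1 or more of these settings is given beside it.

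Of 9 tested genes that make and handle GABA, 1 was called, lower in D2 (11.1%, against 15.7% of all transcripts tested). Gad2, one of the enzymes that make GABA, was at 298, 315, 298 and 316 CPM, a log2 difference of 0.00 (SE 0.09, edgeR adjusted p = 0.998). Gad1 was at 223, 268, 207 and 214 CPM, lower in both D2 libraries but not called (log2 difference -0.22, SE 0.10, edgeR adjusted p = 0.154). Slc38a1, which carries glutamine into these cells, was the gene called, at 124, 135, 92.3 and 89.7 CPM (log2 difference -0.51, SE 0.10, edgeR adjusted p = 0.00225).

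Subunits of the GABA-A receptor, the chloride channel through which GABA acts fastest, were called in 6 of 12 tested genes, all lower in D2, against 8.76% of all transcripts lower. The median of the 12 was -0.34 on the log2 scale, where the median of all transcripts tested was 0.01. Gabrg3 was the most abundant of those called, at 1399, 1646, 1112 and 998 CPM (log2 difference -0.53, SE 0.10, edgeR adjusted p = 0.00267). Gabra4 was at 73.4, 76.4, 53.3 and 50.9 CPM (log2 difference -0.52, SE 0.10, edgeR adjusted p = 0.00313). In both genes the highest D2 library was below the lowest B6 library.

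The alpha subunit gene Gabra2 was at 249, 246, 206 and 198 CPM (log2 difference -0.29, SE 0.09, edgeR adjusted p = 0.036), and the call was lost with DESeq2 (adjusted p = 0.0801) and without each of the 4 libraries in turn (highest edgeR adjusted p = 0.186). Gabrb2 had a log2 difference of -0.35 and lost the call without B6 library 3 (edgeR adjusted p = 0.116). Gabrb1 and Gabra3 were not called, with log2 differences of -0.18 and -0.12. Without B6 library 3 the count of lower subunits was 3 of the list, and with an allowance for gene length, described below, it was 4.

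GABA-B receptors act through GIRK potassium channels, and 8 genes of this pathway were tested. Of these, 1 was higher and 2 were lower in D2 (37.5% called, against 15.7% of all transcripts tested). Kctd8, an auxiliary subunit of the receptor, was at 351, 388, 249.5 and 189 CPM (log2 difference -0.75, SE 0.12, edgeR adjusted p = 0.000631). It has annotated neighbours on its strand. Kcnj6 (GIRK2) was lower by -0.53 on the log2 scale (SE 0.11, edgeR adjusted p = 0.00505, and 0.0526 without B6 library 3). Kcnj9 (GIRK3) was at 24.3, 21.7, 34.7 and 29.9 CPM, higher in D2 by 0.50 (SE 0.14, edgeR adjusted p = 0.0285), and it was not called by DESeq2 (adjusted p = 0.235).

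Of the neuropeptide genes tested, 23.1% were called, against 15.7% of all transcripts tested. Tac2, which encodes neurokinin B, was at 16.3, 16.9, 37.3 and 50.1 CPM (log2 difference 1.38, SE 0.16, edgeR adjusted p = 3.89e-05). Cck, the peptide of cholecystokinin basket cells, was at 141, 96.5, 209 and 365 CPM (log2 difference 1.27, SE 0.21, edgeR adjusted p = 0.000886, DESeq2 adjusted p = 0.0842). Both D2 libraries were above both B6 libraries in each, although the libraries of one strain differed widely for Cck. Cort, cortistatin, was at 45.8, 25.3, 14.0 and 26.4 CPM, and its D2 library 3 lay above B6 library 3. It was the 1 called transcript of the 2429 whose strains overlapped, its edgeR adjusted p was 0.0497, and it lost the call without B6 library 2 (0.324) or D2 library 2 (0.0878). Sst ranged from 381 to 878 CPM in B6 and from 683 to 1123 CPM in D2, so that libraries of 1 strain differed more than the strains did (edgeR adjusted p = 0.225). Of 13 neuropeptide genes tested, 2 were higher and 1 was lower, while 6 were higher and 0 lower by edgeR without B6 library 2 and also without D2 library 2.

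Of 20 neuropeptide receptor genes, 1 was called, lower in D2 (5.0%, against 15.7% of all transcripts tested). It was the mu-opioid receptor gene Oprm1, at 134, 148, 98.4 and 97.9 CPM (log2 difference -0.52, SE 0.10, edgeR adjusted p = 0.00204). Of 26 genes of neuromodulator receptors, 1 (3.85%) was called, higher in D2. This was Cnr1, the CB1 cannabinoid receptor of Cck cells, at 301, 218, 317 and 443 CPM (log2 difference 0.55, SE 0.15, edgeR adjusted p = 0.0265), and it was not called by DESeq2 (adjusted p = 0.439) or without B6 library 3 (edgeR adjusted p = 0.21).

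Transcription factors that set interneuron identity were called in 4 of 21 tested genes (19.0%), 2 in each direction, and 4 were higher without D2 library 2. Npas1, a basic helix-loop-helix factor, was at 74.0, 67.4, 116 and 119 CPM (log2 difference 0.73, SE 0.10, edgeR adjusted p = 0.000137), and Nr2f1 (COUP-TFI) was at 47.1, 44.2, 63.0 and 71.9 CPM (log2 difference 0.56, SE 0.11, edgeR adjusted p = 0.0036). Satb1, a factor of maturing MGE cells, and Prox1, a factor of CGE cells, were each lower by -0.38 on the log2 scale. Satb1 lost the call without D2 library 3 (edgeR adjusted p = 0.159) and Prox1 without B6 library 3 (edgeR adjusted p = 0.325). The abundant Adarb2, Npas3 and Zeb2 had log2 differences of 0.15, 0.07 and -0.00 and were not called.

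Potassium, calcium and sodium channels shape firing, and the medians of their lists were -0.06, 0.01 and -0.05 on the log2 scale. Of 51 potassium channel genes, 6 (11.8%) were called, all lower, against 8.76% of all transcripts lower. Kcnip4, a subunit of the channels of the A-type current, was at 2058, 2282, 1218 and 1370.1 CPM (log2 difference -0.75, SE 0.10, edgeR adjusted p = 0.000105). Kcnc2 (Kv3.2), of channels that allow fast spiking, was at 2126, 2347, 1743 and 1448 CPM (log2 difference -0.49, SE 0.10, edgeR adjusted p = 0.00548). Kcnip3, Kcnt2, Dpp10 and Kcnh7 were lower by log2 differences between -1.24 and -0.38, and of these Dpp10 lost the call without D2 library 3 (edgeR adjusted p = 0.0807) and Kcnh7 without B6 library 3 (edgeR adjusted p = 0.0918). With genes overlapping a neighbour left out, 1 of 34 potassium channel genes was lower, and with a model within subtypes it was 12 of 51.

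Of 16 calcium channel genes, 3 (18.8%) were lower, against 8.76% of all transcripts tested. Cacna1a, the pore of P/Q-type channels that trigger release, was at 747, 735, 557 and 511 CPM (log2 difference -0.47, SE 0.09, edgeR adjusted p = 0.00242). Cacna2d1 was lower by -0.53 (SE 0.11, edgeR adjusted p = 0.00438), while Cacnb2, at -0.27 (edgeR adjusted p = 0.0491), lost the call under 8 alternatives (0.254 without B6 library 3). Of 14 sodium channel genes, 3 (21.4%) were lower. These were Scn9a (Nav1.7) and the channel partners Fgf13 and Fgf14, with log2 differences of -0.51, -0.46 and -0.31, and each lost the call without B6 library 3 (edgeR adjusted p = 0.0587, 0.161 and 0.155). The main pores of these cells, Scn1a and Scn2a, had log2 differences of -0.22 and 0.04 and were not called.

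Among 37 glutamate receptor genes, 1 was higher and 4 were lower (13.5% called, against 15.7% of all transcripts tested). Grm5 was at 2299, 2453, 1996 and 1896 CPM (log2 difference -0.29, SE 0.09, edgeR adjusted p = 0.0418, and 0.212 without B6 library 3), and Grin2a, Grm3 and Cnih3 were lower by log2 differences between -0.67 and -0.31. Grin2a and Grm3 lost the call without B6 library 3 (edgeR adjusted p = 0.123 and 0.0682), and Cnih3 was not called by DESeq2 (adjusted p = 0.0747). Grin2c, the gene called higher, had at most 3.71 CPM in any library and was not called by DESeq2 (adjusted p = 0.2). The more abundant Gria1, Grik2 and Grik1 were not called, with log2 differences between -0.17 and -0.08.

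Synaptic adhesion proteins join interneurons to their partners, and of 54 genes on this list, the one with the most genes tested, 17 were lower in D2 and 1 higher (33.3% called, against 15.7% of all transcripts, of which 8.76% were lower). The share called was 50.0% for the shorter GABA-A receptor and neuregulin lists. Cntnap2, a contactin-associated protein that gathers potassium channels on axons, was at 4425, 4892, 3305 and 3025 CPM (log2 difference -0.56, SE 0.09, edgeR adjusted p = 0.00117). Cntnap3 was at 217, 245, 154 and 134 CPM (log2 difference -0.68, SE 0.10, edgeR adjusted p = 0.000418). Flrt2, a ligand of latrophilins and repellent of Unc5 receptors, was at 289, 306, 196 and 192 CPM (log2 difference -0.62, SE 0.09, edgeR adjusted p = 0.000293). In all 3 genes both D2 libraries were well below both B6 libraries.

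The contactins Cntn3, Cntn4 and Cntn5 were lower by log2 differences of -0.57, -0.72 and -0.43, the receptors Il1rapl1, Il1rapl2 and Il1rap by -0.48, -0.59 and -0.56, and the leucine-rich repeat proteins Lrrtm1 and Lrrtm4 by -0.41 and -0.39. Nlgn1 and Nlgn3, of the neuroligins, were lower by -0.30 and -0.63. Flrt3, Clstn2 and Ptprd were lower by -0.51, -0.57 and -0.32. Flrt1 was the gene higher, at 36.6, 34.0, 54.1 and 49.2 CPM (log2 difference 0.55, SE 0.12, edgeR adjusted p = 0.00504, DESeq2 adjusted p = 0.0503). The 3 most abundant members not called, Nrxn3, Tenm2 and Mdga2, had log2 differences of -0.10, -0.25 and -0.20. Without B6 library 3, Cntn5, Il1rap, Il1rapl1, Lrrtm1 and Lrrtm4 lost the call (edgeR adjusted p = 0.195, 0.177, 0.0622, 0.223 and 0.0736), as did Nlgn1 and Nlgn3 (0.222 and 0.0805) and Flrt3 and Ptprd (0.056 and 0.331). DESeq2 did not call Cntn4 (adjusted p = 0.0707). Without that library 7 genes of the list were lower, and among the 32 genes with no neighbour on their strand 6 were.

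Neuregulins bind ErbB receptors, and Erbb4 is the receptor by which interneurons are built into circuits. Erbb4 was the most abundant of the 6 genes tested, at 6830, 7836, 6012 and 5396 CPM (log2 difference -0.36, SE 0.10, edgeR adjusted p = 0.0259, and 0.196 without B6 library 3). Nrg4 was at 10.8, 14.5, 3.86 and 3.71 CPM (log2 difference -1.74, SE 0.26, edgeR adjusted p = 0.000407), and Egfr was at 115, 120.2, 61.3 and 89.0 CPM (log2 difference -0.66, SE 0.14, edgeR adjusted p = 0.005). These 3 were the genes called, all lower in D2. Nrg3, Nrg1 and Nrg2 had log2 differences of -0.26, -0.23 and -0.04 and were not called.

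Of 36 genes of synaptic vesicle release, 2 (5.56%) were called, both higher in D2, against 6.92% of all transcripts higher, and the median of the list was -0.08. With a model within subtypes 3 were higher and 7 lower, and 2 were lower without B6 library 2 or without D2 library 2. Sv2c, a vesicle glycoprotein, was at 42.1, 34.8, 85.6 and 92.9 CPM (log2 difference 1.21, SE 0.12, edgeR adjusted p = 5.72e-06). Cplx2, a complexin that clamps and promotes fusion, was at 38.9, 43.8, 53.6 and 64.6 CPM (log2 difference 0.51, SE 0.12, edgeR adjusted p = 0.0122, DESeq2 adjusted p = 0.0749). Syt1, the calcium sensor of fast release, was at 3314, 3409.6, 3148 and 3113 CPM and was not called (edgeR adjusted p = 0.458). The 6 genes of calcium-binding proteins and nitric oxide synthase were not called, and Calb1, the gene of calbindin, was at 52.4, 60.1, 59.1 and 67.8 CPM with overlapping strains. By edgeR 0 of these 6 had an unadjusted p under 0.05, and DESeq2 called 0.

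In the perineuronal matrix, which surrounds parvalbumin cells, 3 of 12 genes were lower (25.0%, against 8.76% of all transcripts), the median of the list was 0.09, and 0 were lower by edgeR without B6 library 3. Tnr, tenascin-R, was at 401, 457, 321 and 323 CPM (log2 difference -0.42, SE 0.09, edgeR adjusted p = 0.00777, and 0.0848 without B6 library 3). Vcan and Hapln1 were lower by -0.50 and -0.34, and neither was called by DESeq2 (adjusted p = 0.113 and 0.231) or without B6 library 3 (edgeR adjusted p = 0.091 and 0.0508). Vcan also marks oligodendrocyte precursors, whose 5 markers summed to 48.0, 49.9, 34.3 and 37.7 CPM. Vcan itself is among the 5 and supplied 41.9, 44.5, 28.3 and 33.1 CPM of that sum. The other 4 were at or under 5 CPM in every library. The part of precursor RNA in the difference of Vcan was not tested.

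A list of genes known to carry different alleles in B6 and D2 mice had 4 of 9 tested genes higher and 2 lower. It was drawn from knowledge of these strains and is not independent evidence of its direction. Alad, an enzyme of heme synthesis on chromosome 4 (62509169 to 62519918), was at 4.68, 5.40, 18.4 and 18.9 CPM (log2 difference 1.88, SE 0.21, edgeR adjusted p = 2.70e-05). Its neighbour Hdhd3 was at 0.645, 1.80, 4.71 and 7.06 CPM (log2 difference 2.20, SE 0.43, edgeR adjusted p = 0.00306). The glyoxalase gene Glo1 was at 8.22, 9.89, 16.0 and 21.2 CPM (log2 difference 1.02, SE 0.21, edgeR adjusted p = 0.00422). Mpdz, a scaffold with PDZ domains linked to alcohol withdrawal, was at 129.6, 145, 93.1 and 83.6 CPM (log2 difference -0.63, SE 0.10, edgeR adjusted p = 0.000699). All 4 separated the strains in every pair of libraries, and Kcnj9 and Gabra2, described above, were the other genes called.

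**Figure D2:**
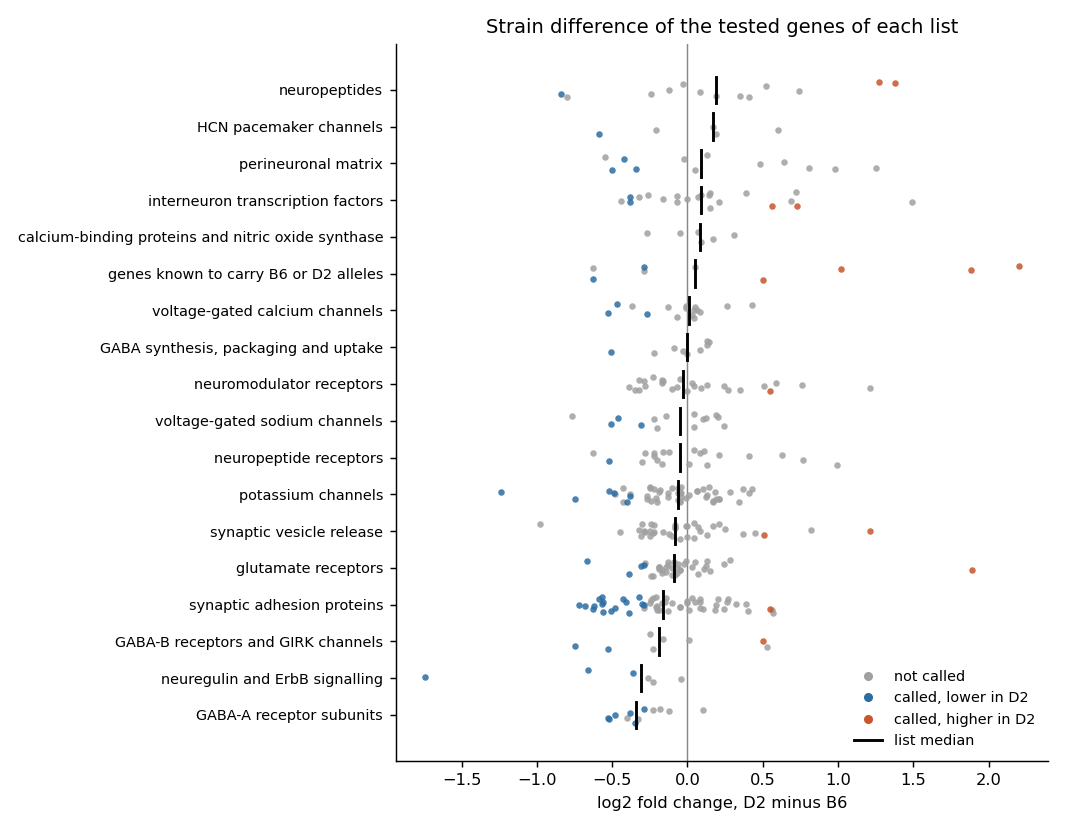
Strain difference of each tested gene on the 18 lists, as the log2 fold change D2 minus B6 on the horizontal axis, with genes called lower in D2 in blue, genes called higher in orange, genes not called in grey and the median of the list as a black bar. The GABA-A receptor and neuregulin lists have the lowest medians (-0.34 and -0.31), the adhesion list holds 17 of the blue points, and the neuropeptide list has the highest median (0.19).

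The genes of several lists are long, and the difference between strains followed gene length across all transcripts. For genes under 3 kb the median log2 difference was 0.19, and 9.42% were called higher and 6.95% lower in D2. The median fell in steps to -0.17 for the 574 genes over 300 kb, of which 3.14% were called higher and 24.6% lower. The median length of the adhesion genes was 165 kb and that of the GABA-A receptor genes was 120.3 kb. Interneuron counts per nucleus were 7485.0 and 9298.3 in B6 and 8072.8 and 8906.2 in D2.

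A fit with an offset for the trend of level with gene length in each library, added after the data were seen, called 968 of 15263 transcripts higher (6.34%) and 1305 lower (8.55%). In it the adhesion list had 13 genes lower and 4 higher with a median of -0.02, the GABA-A receptor list 4 lower with a median of -0.27, and the potassium channel list 5 lower and 2 higher. Of the 67 genes called on the lists, 16 lost the call. Among them were Erbb4 (edgeR adjusted p = 0.0912), Nlgn1 (0.407), Grm5 (0.227) and Gabra2 (0.113), while Cntnap2 (0.00139) and Kcnip4 (0.000585) were called. Counts of genes in this fit are changed by its own construction, since a shift that follows length is removed whatever its cause.

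**Figure D3:**
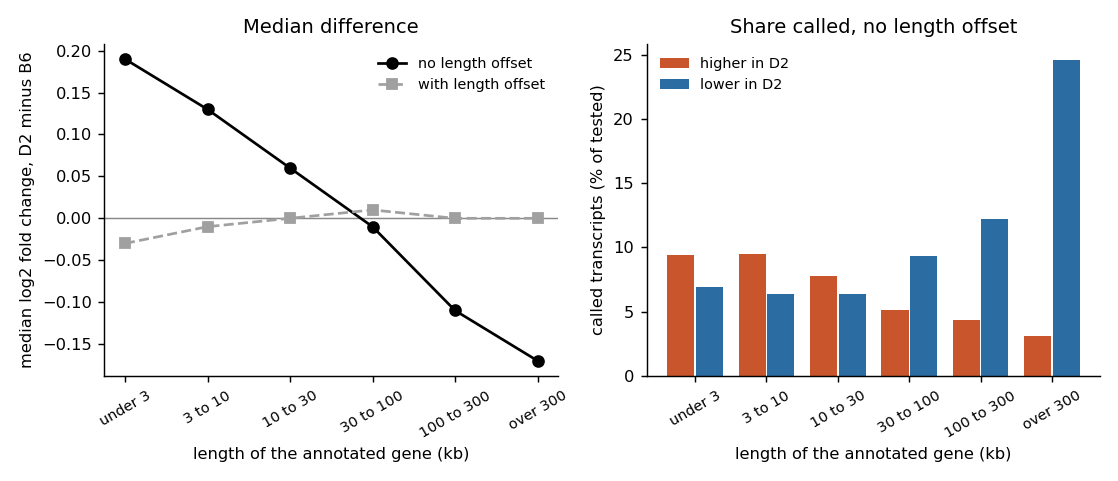
Strain difference by length of the annotated gene in kb. The left panel gives the median log2 fold change D2 minus B6 of each class without (black circles) and with (grey squares) the length offset, and the right panel the percent of tested transcripts called higher (orange) or lower (blue) in D2 without it, which runs from 9.42% and 6.95% under 3 kb to 3.14% and 24.6% over 300 kb.

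Within subtypes, 1619 of 13905 transcripts (11.6%) were called in Inh-MGE, 977 of 12083 (8.09%) in Inh-CGE and 824 of 9781 (8.42%) in Inh-Lamp5 by edgeR, each over the transcripts tested in the sum. Of 9649 transcripts tested in every subtype, 345 were called in all 3 and 344 of these had the same sign throughout, 116 higher and 228 lower in D2. The subtypes of 1 library share its animals and its preparation, so they are not independent of each other. In Inh-CGE 0 transcripts were called by edgeR without D2 library 2 or without D2 library 3 (1770 and 1377 had an unadjusted p under 0.05), the cause of which was not tested, and DESeq2 on all 4 libraries called 362.

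A test of whether the strain difference itself differed between subtypes, with library as a block, called 165 of 13309 transcripts (1.24%), of which 64 were also called in the sum. The smallest p was that of Sv2c. In Inh-Lamp5 it was at 240.3, 189.9, 353 and 383 CPM of that subtype, whereas it was at 6.09, 5.28, 53.2 and 51.0 CPM in Inh-MGE and 4.99, 3.89, 44.2 and 36.8 CPM in Inh-CGE. The log2 difference between strains was thus 3.20 (SE 0.20) and 3.18 (SE 0.31) in Inh-MGE and Inh-CGE and 0.80 (SE 0.14) in Inh-Lamp5, the subtype with the highest B6 level (edgeR adjusted p of the difference between subtypes = 1.84e-12).

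Schip1, a partner of the merlin protein, was at 1260.1 and 1271 CPM in Inh-MGE of B6 and at 11.8 and 14.8 CPM in Inh-MGE of D2. In Inh-Lamp5 it was at 117, 101, 13.3 and 13.2 CPM. Levels in D2 were between 11.7 and 14.8 CPM in every subtype, so the log2 difference followed the level in B6, from -6.59 in Inh-MGE to -2.99 in Inh-Lamp5 (edgeR adjusted p = 1.25e-10). Schip1 overlaps Iqschfp on its strand, and how reads of the pair were assigned with the gene list of each strain cannot be told from the counts.

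The collagen gene Col5a2 was not called in the sum, where the log2 difference was 0.00 (SE 0.14). It was higher in D2 in Inh-MGE (1.23, SE 0.28) and Inh-Lamp5 (0.85, SE 0.20) and lower in Inh-CGE (-0.85, SE 0.19). Its levels in Inh-CGE were 118, 86.6, 67.6 and 44.1 CPM and in Inh-Lamp5 61.4, 56.5, 125 and 82.1 CPM (edgeR adjusted p of the difference between subtypes = 7.15e-08). Khdrbs2, an RNA-binding protein that regulates splicing of neurexins, was at 250.2, 296, 257 and 255 CPM in Inh-MGE, 264, 241, 132 and 128 CPM in Inh-CGE and 167, 226, 58.2 and 74.2 CPM in Inh-Lamp5 (edgeR adjusted p = 7.15e-08). The noncoding 8030451O07Rik was lower by -2.55 (SE 0.22) in Inh-Lamp5 and by -0.46 and -0.60 in Inh-MGE and Inh-CGE (edgeR adjusted p = 5.51e-09).

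Of the 332 list genes in this test, 23 were called, where 1.24% of all transcripts in it were called. Cck was higher in D2 in Inh-CGE, at 346, 225, 510 and 918 CPM, and in Inh-Lamp5, at 93.6, 64.9, 209.8 and 233 CPM. In Inh-MGE it was at 47.3, 44.6, 46.2 and 51.4 CPM, where the strains overlapped (edgeR adjusted p of the difference between subtypes = 5.33e-06). Stab2 was higher in D2 in every subtype, by log2 differences of 5.57 (SE 0.22), 6.16 (SE 0.27) and 3.42 (SE 0.24) in Inh-MGE, Inh-CGE and Inh-Lamp5, and Rnf121 by 4.19, 3.98 and 2.90.

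**Figure D4:**
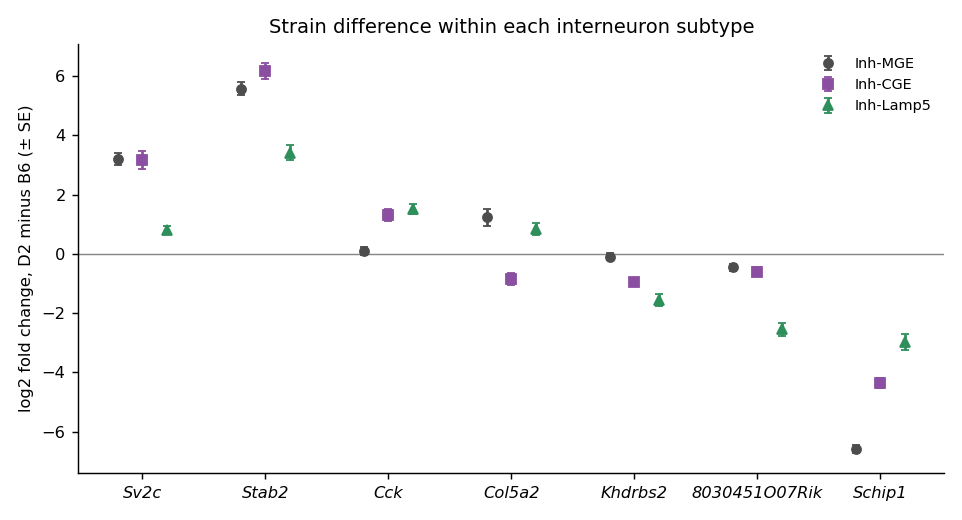
Strain difference within Inh-MGE (dark circles), Inh-CGE (purple squares) and Inh-Lamp5 (green triangles) for 7 transcripts, as the log2 fold change D2 minus B6 with its SE. For Sv2c and Stab2 the triangle lies below both other points, for Cck the circle lies at 0.09 while the others are above 1, and for Col5a2 the square has the opposite sign.

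The chromatin of interneurons was measured in other nuclei by snATAC-seq, and it bears on the start sites of the transcripts called. Of 282447 peaks tested, 3670 (1.3%) differed between strains by edgeR. Peaks within 1 kb of the start of a tested transcript were called in 248 of 12872 cases (1.93%), 160 higher and 88 lower in D2. Of 2168 pairs of a called transcript and its promoter peak, 98 (4.52%) had a called peak, against 173 of 12350 pairs (1.4%) for transcripts not called. In 84 of the 98 the peak and the transcript differed in the same direction, with 46 both higher and 38 both lower, and in 14 they differed in opposite directions. Totals over peaks were 8490139, 9521289, 13401546 and 12982590 counts, so peaks were measured more deeply in D2.

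The peak over the start of Fggy was at 26.6, 25.1, 2.04 and 2.03 CPM of all peak counts, a log2 difference of -3.66 (SE 0.17, edgeR adjusted p = 5.74e-97), beside -4.31 for its transcript. The peak of Stab2 was at 1.75, 1.98, 9.74 and 7.97 CPM, a log2 difference of 2.24 (SE 0.24, edgeR adjusted p = 8.51e-17), beside 4.98 for its transcript. The peak of Alad was at 23.3, 24.3, 72.2 and 67.3 CPM (log2 difference 1.55, SE 0.08, edgeR adjusted p = 7.95e-75), and that of Hdhd3 was at 22.2, 21.0, 68.7 and 66.3 CPM (log2 difference 1.65, SE 0.08, edgeR adjusted p = 2.98e-80). In these 4 genes both D2 libraries lay on the same side of B6 in chromatin as in RNA. The copy number of these genes was not tested.

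For most of the named transcripts no such pairing was found. Of the 20, 15 had a promoter peak that could be tested and 4 had one that was called. Over all promoter peaks 1.93% were called, and over pairs of a called transcript and its promoter peak 4.52%. Of the 4, the peak of Rap1gapos was not called by DESeq2 (adjusted p = 0.149) and lost its call in at least 1 edgeR fit without a library. Some of the peaks not called held few counts, such as 0, 4, 11 and 4 for Gm12160, 1, 4, 8 and 5 for Gm3417 and 15, 14, 14 and 15 for Tek. The SE of their log2 differences was 0.79, 0.78 and 0.41, so a missing call there says little. Rnf121 was 16.1 times as high in D2 as a transcript, while its promoter peak was at 34.2, 33.4, 32.2 and 32.1 CPM, a log2 difference of -0.07 (SE 0.09, edgeR adjusted p = 0.882). The promoter peak of Mlycd was at 30.4, 33.8, 32.2 and 31.4 CPM (log2 difference -0.02, SE 0.09, edgeR adjusted p = 0.98). At Mlycd the strains overlapped at the peak, and at Rnf121 the difference of the peak was smaller than its SE. At Zfp951 the direction was opposite, since a peak at its start had 43 and 44 counts in the B6 libraries and 0 in both D2 libraries, at least 42.5-fold lower against a floor of 3 counts over the strain, while the transcript was higher in D2. Whether reads of D2 could be mapped to this stretch was not tested.

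Of 332 list genes with a promoter peak, 8 had one that was called, where 1.93% of all promoter peaks were called. Besides Alad and Hdhd3 these were Kcnip3 and Cort, lower in D2 in both readouts, and Kcnn2, Kcnn3, Dlx1 and Maf, whose peaks were higher in D2 while their transcripts were not called. DESeq2 called the peaks of Alad and Hdhd3 and not those of the other 6, whose adjusted p ran from 0.0727 for Kcnip3 to 1 for Cort and Maf, and each of the 6 lost its call in edgeR without at least 1 library (highest adjusted p from 0.132 for Kcnip3 to 0.779 for Cort). The peak of Kcnip3, whose product binds channels of the A-type current, was at 18.3, 22.1, 12.8 and 13.2 CPM (log2 difference -0.64, SE 0.12, edgeR adjusted p = 2.66e-05). That of Gabra2 was at 40.1, 36.3, 43.3 and 46.3 CPM, higher in both D2 libraries but not called (log2 difference 0.23, SE 0.08, edgeR adjusted p = 0.166).

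**Figure D5:**
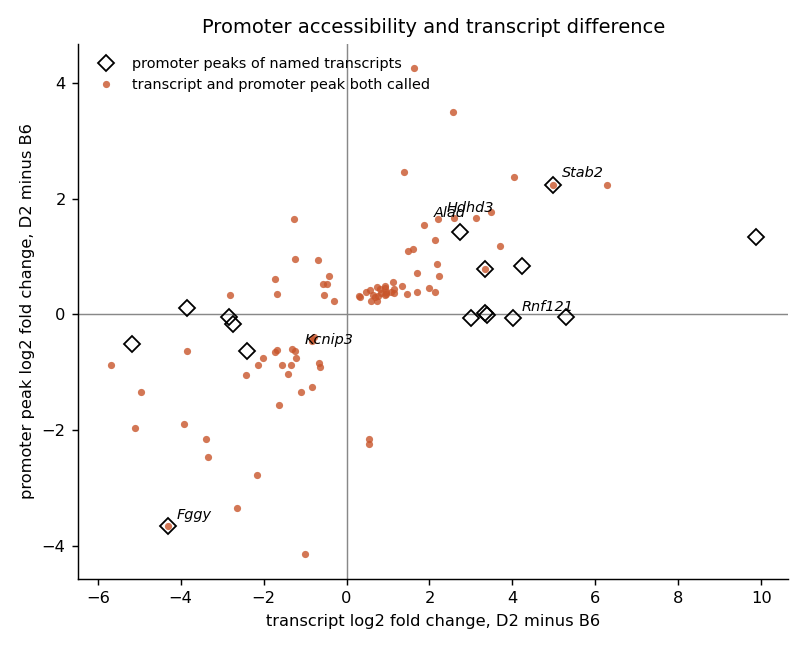
Log2 fold change D2 minus B6 of transcripts (horizontal axis) and of peaks within 1 kb of their start (vertical axis). Orange points are 88 of the 98 pairs called in both readouts and diamonds are 16 peaks of named transcripts, pairs whose peak had 0 counts in a strain being left off, and Fggy and Stab2 lie far out along the diagonal while Rnf121 lies near 0 on the vertical axis.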

How the data were processed

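Per the labels and the methods of the study, snRNA-seq reads were mapped with Cell Ranger 6.0.2 with introns retained, to mm10 for B6 and to mm10 with D2 bases at known variant sites for D2. Nuclei were filtered and clustered with Seurat 4.0.5, doublets were removed with DoubletFinder, and snATAC-seq reads were processed with Cell Ranger ATAC 2.0.0, with MACS peaks called per sample and merged. The release of the gene annotation and the use of strand are not given in the sources used here. The values used are raw counts that the authors deposited per cell type and library, and the numbers of nuclei are the authors' own. The columns carry library numbers 2 and 3 and the labels replicates 1 and 2, so that each column has a known strain but no known sample. Columns of other cell types, 56 in the RNA table and 48 in the chromatin table, were left out.

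Inh- columns were summed in each library and tested with edgeR 4.0.16 (R 4.3.3), with TMM normalization, filterByExpr, a quasi-likelihood F test without covariates and Benjamini-Hochberg adjustment over all transcripts, calling at an adjusted p under 0.05. Peaks with at least 10 counts were tested in the same way, and promoter peaks lay within 1 kb of a gene start in GENCODE vM21 on GRCm38. Of the 21635 members, 21172 had a single annotation entry. CPM were computed here from the counts and TMM-scaled library totals, and each SE from the log2 difference and the F value. DESeq2 1.42.0 and limma 3.58.1 were alternatives. The steps were tested on simulated data.

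The members and gene lists were chosen with earlier results of these data known. Named transcripts are the 10 with the widest log2 difference in each direction among those called with a mean of at least 10 CPM, separate strains, a single protein-coding or noncoding entry and no overlap on their strand, the called and the 3 most abundant members of each list, and the 5 with the smallest p of the subtype test at a mean of at least 10 CPM. Some genes that these rules select are not reported here. Further genes of a list that are named were picked with their values in view. Deviations from the strain means of libraries with the same number had a correlation of -0.223.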

Additional observations from a re-analysis of the deposited data

Results flagged for a closer look

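In 30 transcripts the strain difference itself differed between interneuron subtypes by edgeR's quasi-likelihood test with library as a block, among the 5 with the smallest p, the list genes and the named transcripts. Values are the widest difference in the log2 fold change (D2 minus B6) between a pair of subtypes. Inh-Lamp5 minus Inh-CGE was -2.42 for Sv2c and -2.78 for Stab2, and Inh-Lamp5 minus Inh-MGE was 3.56 for Schip1, -2.10 for 8030451O07Rik, -1.49 for Khdrbs2, -3.46 for Gm16268 (not called by DESeq2, adjusted p = 0.0991) and -1.30 for Rnf121. Inh-CGE minus Inh-MGE was -2.04 for Col5a2.

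Among marker and peptide genes the widest difference was 1.61 for Adarb2, 1.40 for Cck and -1.61 for Sst. For Adarb2 and Sst it rests on the level in a subtype where the transcript is scarce, such as 24.4 and 40.4 CPM (B6) and 10.0 and 13.4 CPM (D2) of Adarb2 in Inh-MGE, and DESeq2 did not call either (adjusted p = 0.0845 and 1). Among channel genes it was 1.26 for Cacna1e, 0.83 for Dpp10, 0.75 for Kcnb2, -0.70 for Kcnj3, -0.64 for Kcnmb2, 0.70 for Kcnq3 and 0.64 for Scn9a. Among receptor genes it was 1.17 for Chrna7, 0.75 for Htr1f, 1.04 for Htr2c, -0.78 for Htr7, -0.98 for Neto1, 0.63 for Shisa9 and -0.59 for Ntrk3. Among adhesion, matrix and release genes it was 1.70 for Elfn1, -1.60 for Il1rapl2, -0.66 for Lrrtm4, -0.80 for Tnr and 0.90 for Unc13b. Elfn1 was scarce in Inh-Lamp5, at 0.0, 0.926, 1.21 and 1.32 CPM, and was not tested in that subtype alone. Of the genes in this paragraph, DESeq2 called Cck, Cacna1e, Dpp10 and Kcnb2 and none of the others, with an adjusted p of 0.168 for Chrna7, 0.627 for Htr2c, 0.0504 for Neto1 and 1 for Htr1f, Htr7, Elfn1 and Il1rapl2.

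Symbols counted in interneurons of D2 only, which no comparison uses, held 3.68% and 3.83% of the counts of the D2 libraries, and symbols counted in B6 only held 0.969% and 0.919% of those of the B6 libraries. Of the 6715 D2-only symbols with a single annotation entry 2478 were pseudogenes, while 0 of 1355 B6-only symbols were. These symbols fall outside the rule that a symbol have counts in both strains. Whether the strains were counted with the same gene list was not tested.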

How the results depend on the processing

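Of 278 values of the 20 named transcripts under the alternatives, all kept their direction and their call, and no result reversed. Of 906 values of the 67 called list genes, 113 lost the call, 29 of them without B6 library 3. DESeq2 called 1132 transcripts in the sum against 2429, 660 against 1619 in Inh-MGE, 362 against 977 in Inh-CGE, 214 against 824 in Inh-Lamp5, 34 against 165 in the test between subtypes and 71 against 248 promoter peaks. Leaving out each library in turn gave 1272 to 2467 transcripts in the sum, 865 to 1802 in Inh-MGE, 0 to 937 in Inh-CGE, 449 to 629 in Inh-Lamp5, 63 to 121 in the test between subtypes and 117 to 174 promoter peaks. The lowest counts were found without B6 library 3, except in Inh-CGE, where they were found without either D2 library, and in the test between subtypes, where D2 library 3 gave the same count. In these fits the lone library of a strain is assumed to vary like the others. Without transcripts that overlap on their strand, 1488 of 11605 were called. With library number as a replicate block 2440 transcripts were called, and with crossed numbers as the block, a pairing added after the data were seen, 4309. The cause of these changes was not tested. Libraries of 1 number share only that number, and precision is limited by 2 libraries per strain.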

Other observations

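All 12 tested transcripts of the mitochondrial genome had a log2 difference below 0, and 7 were called lower in D2 by edgeR. The differences were uneven along the genome, with -7.46 for mt-Co3, -6.50 for mt-Atp6, -6.17 for mt-Nd4l and -3.28 for mt-Co1, but -0.38 for both mt-Nd1 and mt-Nd2, -0.42 for mt-Cytb and -0.30 for mt-Atp8, which were not called. The level of mt-Co3 was 500.1, 729.6, 3.86 and 2.97 CPM, while that of mt-Cytb was 220.2, 367, 256 and 184 CPM, with overlapping strains.

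Transcripts that overlap another gene on their strand were not named by rule, and those given here were chosen after their values were seen. Among those with the widest differences, Pisd, which makes phosphatidylethanolamine, was at 26.9, 26.5, 237 and 246 CPM (log2 difference 3.17, SE 0.10, edgeR adjusted p = 8.77e-11), and the centrin-binding Sfi1 was at 47.1, 39.3, 253 and 255 CPM. The chromatin protein gene Hmgb1 was at 50.6, 61.9, 204 and 231 CPM (log2 difference 1.95, SE 0.11, edgeR adjusted p = 3.64e-08). In all 3 the D2 libraries were several times as high as the B6 libraries. Rnasek was at 79.8 and 56.7 CPM in B6 with 2 and 3 counts in the D2 libraries.

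By chromosome, the share of tested transcripts called was 21.9% on chromosome 17 (153 of 698) and 10.0% on chromosome X (49 of 490), with the other chromosomes of the nucleus that held at least 400 tested transcripts between 13.3% and 17.9%.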
